A study of Rattus norvegicus with 17 samples.

Results

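The 10 genes below encode the sarcomeric myosin chains described here, the motor and light chain subunits of the thick filament of striated muscle. They were Myh1, Myh2, Myh3, Myh4, Myh7, Myh8, Myl1, Myl2, Myl3 and Myl11, and they were found as every array probe whose sequence name maps to one of these genes. This gave 12 probes for 10 genes, out of 30367 probes and 15148 named genes. Myh2 and Myh3 had 2 probes each, and each gene was read from the brighter one. Of the 10 genes, 6 were well above background on at least 8 of 17 arrays and so passed the filter on dim probes (Myh1, Myh3, Myh7, Myh8, Myl1 and Myl11), while Myh2, Myh4, Myl2 and Myl3 did not pass and are given with their measured arrays and as bounds.

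The arrays measured RNA of skin explants from male CD hairless rats, a line that lacks normal fur, housed in pairs and aged 2 to 3 months when the experiment began. Exposed rats received millimetre waves of 94 GHz in sessions of 3 h, 3 days a week, during 5.5 months, and sham rats were sham exposed on that schedule, so that both groups share strain, sex, starting age, housing and storage of the explants in a preservative. There were 9 exposed and 8 sham arrays, each a 1-colour Agilent hybridisation, on 4 slides read from the sample titles. The series' design, however, gives 6 exposed rats and 8 sham rats. Exposed arrays may thus repeat an animal, and p-values would then be too small; no label ties an array to an animal, and all p-values measure the spread between arrays. Per array, the 75th percentile signal was 1077 to 1703, 66.7% to 70.8% of probes were well above background, and no spot was saturated. All levels below are log2 of the signal relative to that percentile of the same array, so that 0 is the level of the 75th percentile probe.

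A thick filament is built from myosin hexamers, each made of a pair of heavy chains, which hold the motor and the tail, and of essential and regulatory light chains wrapped around the lever arm. Muscle fibres are typed by their heavy chain: Myh7 in slow type I fibres, Myh2 in type IIa, Myh1 in type IIx and Myh4 in type IIb, with Myh3 (embryonic) and Myh8 (perinatal) used mainly during development and regeneration. In rat skin the expected source of such fibres is the panniculus carnosus, a thin sheet of striated muscle under the dermis; the labels do not say whether explants were taken with or without it.

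Apart from Myh7, the heavy chain genes lie side by side on rat chromosome 10, where the order of protein-coding genes in the RefSeq assembly GRCr8 is Myh3, Myh2, Myh1, Myh4, Myh8 and Myh13. RefSeq start site windows, from 250 bases before to 50 bases after a gene's start, were on hand for 9 of the 10 genes. The windows of the 3 adult fast chains share a run of 20 bases, which is shown in capitals because these genes are neighbours whose levels are compared below. The Myh2 window is chr10:52355489-52355788, that of Myh1 chr10:52384662-52384961 and that of Myh4 chr10:52421898-52422197, all on the plus strand of GRCr8, and each is printed 5′ to 3′.
Myh2: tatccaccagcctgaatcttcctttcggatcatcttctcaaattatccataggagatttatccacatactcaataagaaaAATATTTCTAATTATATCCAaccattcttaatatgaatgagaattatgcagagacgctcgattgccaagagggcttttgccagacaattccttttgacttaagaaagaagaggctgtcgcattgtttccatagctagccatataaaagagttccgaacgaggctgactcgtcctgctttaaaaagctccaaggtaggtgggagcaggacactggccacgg
Myh1: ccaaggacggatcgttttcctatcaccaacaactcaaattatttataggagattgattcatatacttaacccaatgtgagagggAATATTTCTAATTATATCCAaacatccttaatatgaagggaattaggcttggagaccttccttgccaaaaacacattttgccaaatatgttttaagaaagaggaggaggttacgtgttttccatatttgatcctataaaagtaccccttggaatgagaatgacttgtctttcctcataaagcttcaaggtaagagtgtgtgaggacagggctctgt
Myh4: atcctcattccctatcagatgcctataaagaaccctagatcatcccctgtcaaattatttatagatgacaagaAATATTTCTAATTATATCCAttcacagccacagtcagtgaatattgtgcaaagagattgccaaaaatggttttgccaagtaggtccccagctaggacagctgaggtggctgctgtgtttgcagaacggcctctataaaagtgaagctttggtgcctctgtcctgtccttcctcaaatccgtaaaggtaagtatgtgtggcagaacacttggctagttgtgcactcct
The run began 170 bases before the start of Myh2, 166 before that of Myh1 and 177 before that of Myh4. On either strand it was in 5 of 33469 RefSeq windows of this length, namely those 3 and both windows of LOC102555216.

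The window of Myh8, chr10:52462259-52462558 on the plus strand, does not hold the run. Sequence outside the window was not searched, so whether the run lies farther from this annotated start is not known. The Myh8 window is shown because its level is compared with that of Myh1 below, and it has no capitals.
Myh8: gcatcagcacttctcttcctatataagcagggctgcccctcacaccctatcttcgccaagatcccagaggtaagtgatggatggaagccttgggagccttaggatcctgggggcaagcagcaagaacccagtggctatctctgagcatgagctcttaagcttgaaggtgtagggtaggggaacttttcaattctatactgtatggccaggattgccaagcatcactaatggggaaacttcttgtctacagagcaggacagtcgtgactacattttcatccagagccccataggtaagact
Among the light chains, 1 of the 2 Myl1 windows, chr9:75897750-75898049 on the minus strand, held a core motif of the muscle factor MEF2. It was searched for on both strands in a strict form, with fixed outer letters and any letters in the middle. This form is in 3.84% of all windows. Forms with other outer letters were not searched for. The other windows, those of the heavy chains included, thus cannot be said to lack a MEF2 site. The capitals mark the MEF2 match, CTAAAAATAG, and 1 match to the E-box letters CANNTG. These E-box letters are in 72.1% of all windows but not in those of Myh1, Myh2 and Myh8.
Myl1: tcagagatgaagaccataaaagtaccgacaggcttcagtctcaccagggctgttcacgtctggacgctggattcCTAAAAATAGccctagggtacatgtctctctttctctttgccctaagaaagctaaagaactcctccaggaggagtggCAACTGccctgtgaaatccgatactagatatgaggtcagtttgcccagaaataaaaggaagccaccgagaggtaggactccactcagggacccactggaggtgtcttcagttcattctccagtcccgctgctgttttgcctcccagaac
These matches describe letters in a window, and no measurement here bears on factor binding.

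The myosin chains varied widely within both groups. For 8 of the 10 genes some arrays were not well above background, so their span is a bound, from the highest array to the highest bound among the unmeasured arrays. The span was at least 4.07 log2 (Myh4) for each of the 10 genes, with a median of at least 7.59. Over 15129 other named genes, without a filter on dim probes, the measured range had a median of 0.82, and 95% had a range under 2.88. Taken at the measured signal of every array, the median range of the chains was 8.91, and 5.83 with normexp background correction. All 10 genes were well above background on 3 arrays, exposed replicates 8 and 4 and sham replicate 3. Another 3 arrays, sham replicate 5 and exposed replicates 6 and 3, measured every chain but Myh4. At the other end, exposed replicate 9 and sham replicates 1, 4, 6 and 8 measured only 3 or 4 of the chains, and neither Myh1 nor Myl1. Since these are bulk samples, fewer muscle fibres and less myosin RNA per fibre cannot be told apart. The score of the 6 chains that passed the filter, their mean level after centring each gene, had a Pearson correlation of 0.04 with the signal percentile of an array and of 0.05 with its share of probes well above background (n = 17; Spearman −0.05 and 0.05; permutation p adjusted over both measures 0.883 and 0.860 for the 2 coefficients of each; r = 0.15 and 0.16 without exposed replicates 8 and 4).

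**Figure D1:**
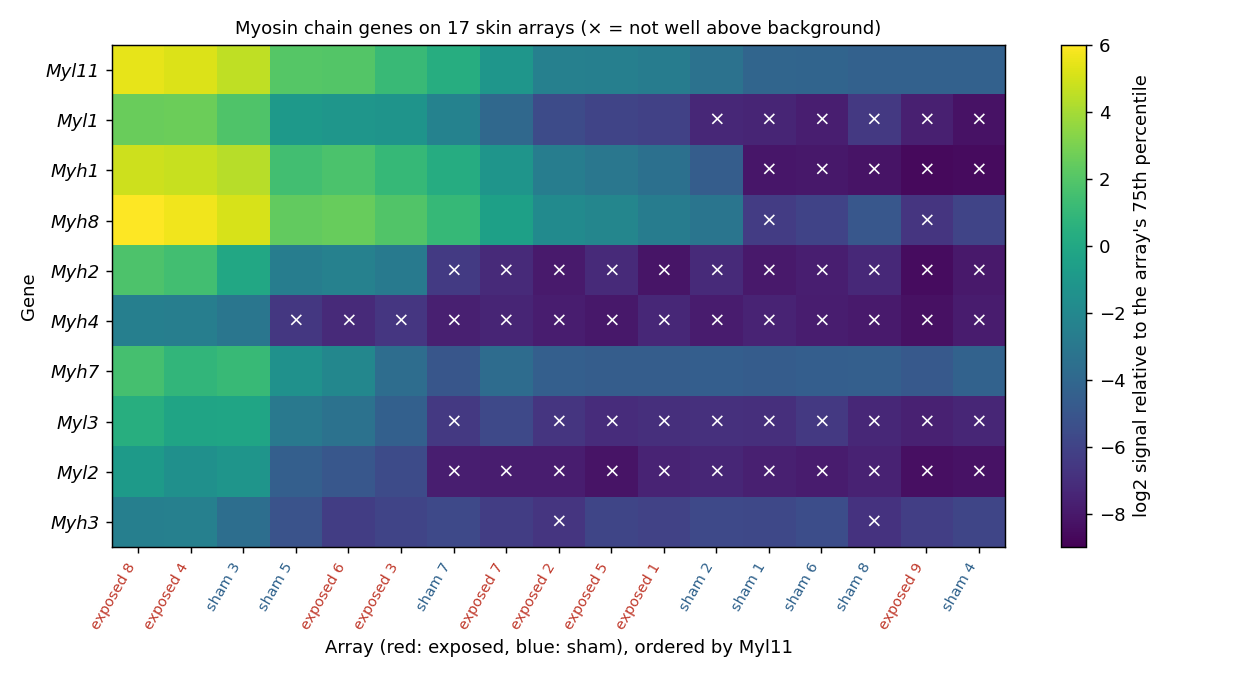
Level of each myosin chain gene (rows) on each array (columns, ordered by Myl11; red names exposed, blue names sham), as log2 signal relative to the array's 75th percentile, with a cross where the probe was not well above background. Colours are to be compared along a row: the 3 arrays on the left measured all 10 genes, and the 5 on the right lack Myh1 and Myl1.

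The fast chains come first. Myh1, the IIx heavy chain, ran from −8.60 over a median of −1.16 to 4.87 on exposed arrays and from −8.54 over −6.32 to 4.40 on sham arrays. It was well above background on 12 arrays (8 exposed, 4 sham), and the highest array lay at least 3468-fold above every array where it was not, with the dim array taken at the higher of its own signal and the lowest signal of any probe well above background there. Exposed replicates 8 and 4 and sham replicate 3 were high in Myh1, at 4.87, 4.74 and 4.40, and low arrays, down to background, occurred in both groups, which overlapped.

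Myl11, the fast regulatory light chain, was well above background on all 17 arrays. Its exposed arrays lay between −4.34 and 5.42 with a median of −1.13, and its sham arrays between −4.34 and 4.55 with a median of −3.72. The highest array was 867-fold above the lowest, and high and low arrays occurred in both groups. Down to −3.33 the levels formed a graded series rather than 2 classes. They were 5.42, 5.22 and 4.55 on the 3 richest arrays, 2.03, 1.97, 1.17 and 0.33 on the next 4 and −1.13 to −3.33 on the 5 after those. The last 5 arrays lay close together, at −4.11 to −4.34, as on a plateau. Neither Myh1 nor Myl1 was well above background on these.

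Myl1, the fast essential light chain, ran from −7.68 over −3.92 to 2.66 in exposed skin and from −8.24 over −6.90 to 1.88 in sham skin. It was measured on 11 arrays (8 exposed, 3 sham) and was at least 567-fold higher on exposed replicate 4 than on any array where it was not. The order of its arrays was nearly that of Myl11, and the groups overlapped.

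Myh2, the IIa heavy chain, was measured on 6 arrays, 4 exposed and 2 sham. In exposed skin the lowest, median and highest levels were −8.52, −7.23 and 1.79, and in sham skin −7.99, −7.23 and −0.01, so the medians of both groups lie among arrays not well above background. Its highest array, exposed replicate 8, was at least 300.2-fold above every unmeasured one; the other Myh2 probe was measured on the same number of arrays and gave at least 68.1-fold, on exposed replicate 4.

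Myh4, the IIb heavy chain and typically the most abundant in the fast muscles of rodent limbs, was measured on only 3 arrays, at −2.53 and −2.58 on exposed replicates 8 and 4 and at −3.09 on sham replicate 3. The next highest arrays, at −6.60 and −6.61, were not well above background, which puts the highest array at least 16.7-fold above every unmeasured one. The exposed median was −7.32 and the sham median −7.72, both not well above background. A probe's brightness depends on its own sequence, so the lower numbers of Myh4 do not rank it below Myh1 in abundance; what the arrays show is that its measured level was limited to the 3 arrays richest in the other chains.

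Myh7, the slow heavy chain that is also the beta chain of the heart ventricle, was well above background on all 17 arrays. Exposed arrays ran from −4.81 over −3.71 to 1.58 and sham arrays from −4.99 over −4.48 to 1.13, a 94.8-fold span from lowest to highest array. It lay above −4 on 7 arrays: 1.58, 0.89 and 1.13 on the 3 richest arrays, −1.43, −2.07 and −3.65 on sham replicate 5 and exposed replicates 6 and 3, and −3.71 on exposed replicate 7. The remaining 10 arrays lay between −4.99 and −4.29, although Myh1 spanned −8.60 to 0.31 on them.

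The slow light chains were measured on the arrays where Myh7 was high. Myl3, the slow and ventricular essential chain, passed background on 7 arrays (5 exposed, 2 sham), with exposed levels of −7.64, −5.70 and 0.43 (lowest, median and highest) and sham levels of −7.40, −6.74 and −0.21. Myl2, the slow and ventricular regulatory chain, was so on 4 exposed and 2 sham arrays, with exposed levels of −8.39, −7.49 and −0.84 and sham levels of −8.24, −7.60 and −1.19. These highest arrays were at least 124-fold (Myl3) and 60.5-fold (Myl2) above every array where the probe was not measured. The 7 arrays with Myl3 were the 7 on which Myh7 stood above −4, and high arrays came from both groups.

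Myh8, the perinatal chain, was measured on 8 exposed and 7 sham arrays. It ran from −6.69 over −0.49 to 5.97 in exposed skin and from −6.32 over −4.06 to 5.12 in sham skin, at least 5028-fold above the unmeasured arrays at its top. The same 3 arrays were high and exposed replicate 9 was lowest in both Myh8 and Myh1, and on the 12 arrays where both were well above background their order was identical. Myh3, the embryonic chain, behaved otherwise. Its levels were −2.49 and −2.54 on exposed replicates 4 and 8 and −3.60 on sham replicate 3, while its other arrays lay between −6.81 and −5.14, with group medians of −6.02 (exposed) and −5.71 (sham). The second Myh3 probe was well above background on just those 3 arrays.

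**Figure D2:**
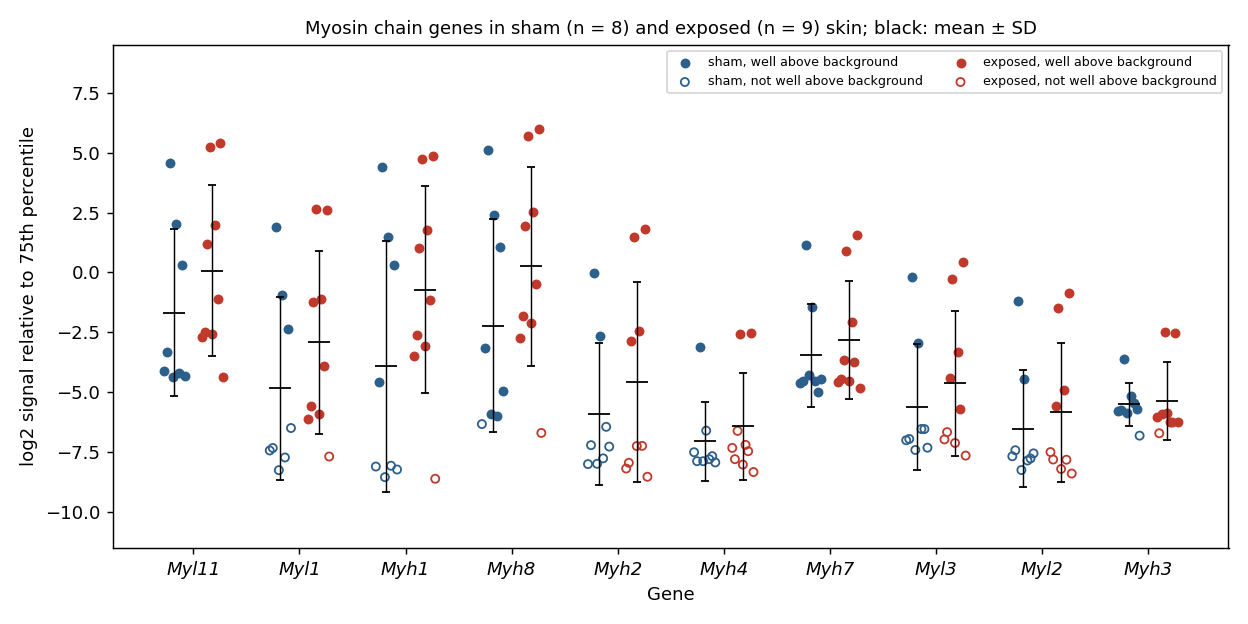
Level of each myosin chain gene on sham (blue, n = 8) and exposed (red, n = 9) arrays, as log2 signal relative to the array's 75th percentile; open points were not well above background, and black bars give the mean ± SD. For each gene the points of both groups overlap, and 3 arrays stand highest. The tops differ most clearly in Myh2, at 1.79 on exposed and −0.01 on sham arrays.

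The 4 genes with a graded level, Myl11, Myl1, Myh1 and Myh8, varied together over the arrays. This set was chosen after their values were seen, and for the other 6 genes most arrays lie at background or on a plateau, so no correlation is given. Over 17 arrays the 6 pairs had Pearson correlations of 0.960 to 0.994 and Spearman correlations of 0.966 to 0.993, each with a permutation p of 1e-05 (also 1e-05 after adjustment over the 6 pairs), which is the smallest that 100000 resamples can give. Without exposed replicates 8 and 4, the arrays farthest from the median, r was 0.948 to 0.992. Because a few arrays sit at background in 3 of the 4 genes, the arrays with both genes well above background are the better measure: there r was 0.995 for Myl11 with Myh1 (n = 12), 0.987 for Myl11 with Myh8 (n = 15) and 0.999 for Myh8 with Myl1 (n = 11). The 15 arrays of Myl11 with Myh8 include some on which Myl11 was at its low plateau.

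**Figure D3:**
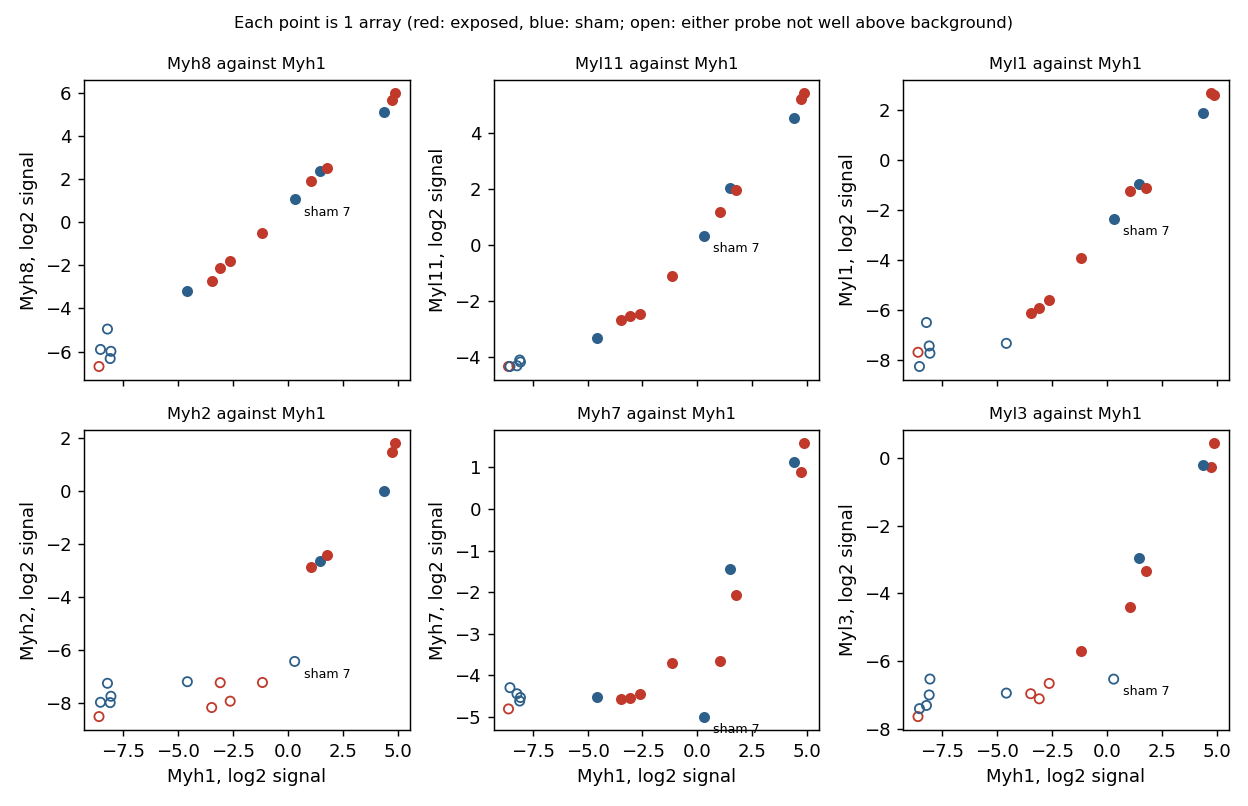
Level of 6 myosin chain genes against that of Myh1, 1 point per array (red exposed, blue sham), both axes in log2 signal relative to the array's 75th percentile, with open points where either probe was not well above background. Myh8, Myl11 and Myl1 follow Myh1 along a line. Myh7 lies on a plateau on most arrays, and most points of Myh2 and Myl3 are open, so their low part shows no level. Sham replicate 7 is low in Myh2, Myh7 and Myl3, whereas exposed replicate 7, lower in Myh1, has Myh7 at −3.71 and Myl3 measured.

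Differences between 2 genes on the same array show how far the mix of chains changed as the amount of myosin RNA changed. They are given after subtracting the median of the difference over arrays, only where both probes were well above background; the 16 pairs were picked after the levels were seen, so these are descriptions without a test. Myh8 minus Myh1 had a range of only 0.74 over 12 arrays while each of the genes moved by more than 9 log2 (9.14 and 9.44). Such a near constant ratio between neighbouring paralogs has to be read with care, since heavy chain genes are closely alike and a probe for one may read another; probe sequences were not used here, and this was not tested. Duplicate spots of the same probe on 1 array differed by a median of 0.05 to 0.15 log2 over the genes, and at most by 0.57.

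Among the light chains, Myl1 minus Myl11, both fast, had a range of 0.99 over 11 arrays, and Myl2 minus Myl3, both slow, had a range of 0.58 over 6 arrays. Light chains of unlike type had ranges of 1.13 for Myl2 minus Myl11 (6 arrays) and 1.36 for Myl3 minus Myl1 (7 arrays). The slow light chains against their slow heavy chain had ranges of 1.09 for Myl2 minus Myh7 (6 arrays) and 1.25 for Myl3 minus Myh7 (7 arrays). The arrays differ between these pairs. On the 6 arrays with Myl2, its range was 0.58 against Myl3, 1.09 against Myh7 and 1.13 against Myl11. There Myl1 minus Myl11 ran from −0.26 to 0.39 and Myl3 minus Myl1 from −0.97 to 0.16. On these 6 arrays the pairs of like type were narrower than those of unlike type, though 1.09 and 1.13 are close. That last order depended on the processing. The SD was 0.39 for Myl2 minus Myh7 and 0.41 for Myl2 minus Myl11, but 0.59 and 0.56 with normexp. Over all arrays of each pair, Myl3 minus Myh7, of like type, was wider than Myl2 minus Myl11, of unlike type (1.25 against 1.13). Myh7 minus Myh1, slow against IIx, spanned 5.37 over 12 arrays, from −2.21 on sham replicate 7 to 3.16 on sham replicate 2. The high end of that span comes from arrays where Myh7 is on its plateau and Myh1 is low, and on the 6 arrays where Myh2 was measured the same difference spanned 1.77.

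A single array stood apart in its mix. Sham replicate 7 had fast chains near the middle of the series, with Myh1 at 0.31, Myh8 at 1.06 and Myl11 at 0.33, but its Myh7 was the lowest of all, at −4.99, and Myh2, Myl2 and Myl3 were not well above background. Exposed replicate 3 had 1.66-fold more Myh1 signal and 1.79-fold more Myl11 signal than this array, but at least 12.0-fold more Myh2, at least 4.40-fold more Myl3 and at least 2.29-fold more Myl2. Exposed replicate 7 had less Myh1 than sham replicate 7, by 1.47 log2, and yet a Myh7 level 1.28 log2 higher, with Myl3 measured. With 1 such array there is no replicate of the pattern.

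On the 6 arrays where Myh2 was measured, the slow chains relative to Myh2 were higher on both sham arrays than on all 4 exposed arrays. Myh7 minus Myh2 was 1.08 and 1.16 on sham replicates 3 and 5 and −0.86 to 0.28 on exposed replicates 3, 4, 6 and 8. Myl3 minus Myh2 was 0.84 and 0.94 on those sham arrays against −0.58 to 0.22, and Myl2 minus Myh2 was 0.78 and 1.37 against −0.40 to 0.08. With 4 against 2 arrays an exact permutation test has 15 splits and cannot go below 0.0667, so none was used. Of the 16 pairs, 4 had groups that did not overlap; besides these 3 it was Myh4 minus Myh1, with 1 sham array. The same split was seen for 17 of 10580 other named genes measured on all 6 arrays (0.161%) when set against Myh2, the sham arrays being higher for all 17, and these included 4 of 10 fast fibre partners as well as 3 of 9 slow ones. The split is therefore seen with fast genes too when Myh2 is the partner. Against Myh1 it was seen for 0 of 10 fast and 2 of 9 slow partners, and for 4 of all 10580 genes (0.0378%), with the sham arrays higher for 2 of these. On these 6 arrays Myh2 and Myh1 each overlapped between the groups, so a gene flat over arrays could not split against either. Kept genes had a median range of 0.65 log2, so both shares over all genes were low by construction. They do not gauge how rare the split of the slow chains is. The 3 slow contrasts also share Myh2 and the same 2 sham arrays.

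Single arrays with similar Myh1 differed in whether they showed this. Exposed replicates 4 and 8 exceeded sham replicate 3 in Myh1 by 0.34 and 0.47 log2, but in Myh2 by 1.48 and 1.81. In Myh7, Myl2 and Myl3 exposed replicate 4 was below sham replicate 3, by −0.24, −0.30 and −0.04 log2, and exposed replicate 8 above it, by 0.45, 0.36 and 0.64. Exposed replicate 6 exceeded sham replicate 5 in Myh1 by 0.29 and in Myh2 by 0.24, with no such excess of Myh2, while its Myh7, Myl2 and Myl3 were lower, by −0.64, −0.47 and −0.38. All 3 Myh2 differences also separated the groups with the other Myh2 probe, with normexp and with quantile scaling, which were tried after the values were seen. Myh1 minus Myh2 overlapped by 0.05 log2 with the main probe and did not overlap with the other.

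**Figure D4:**
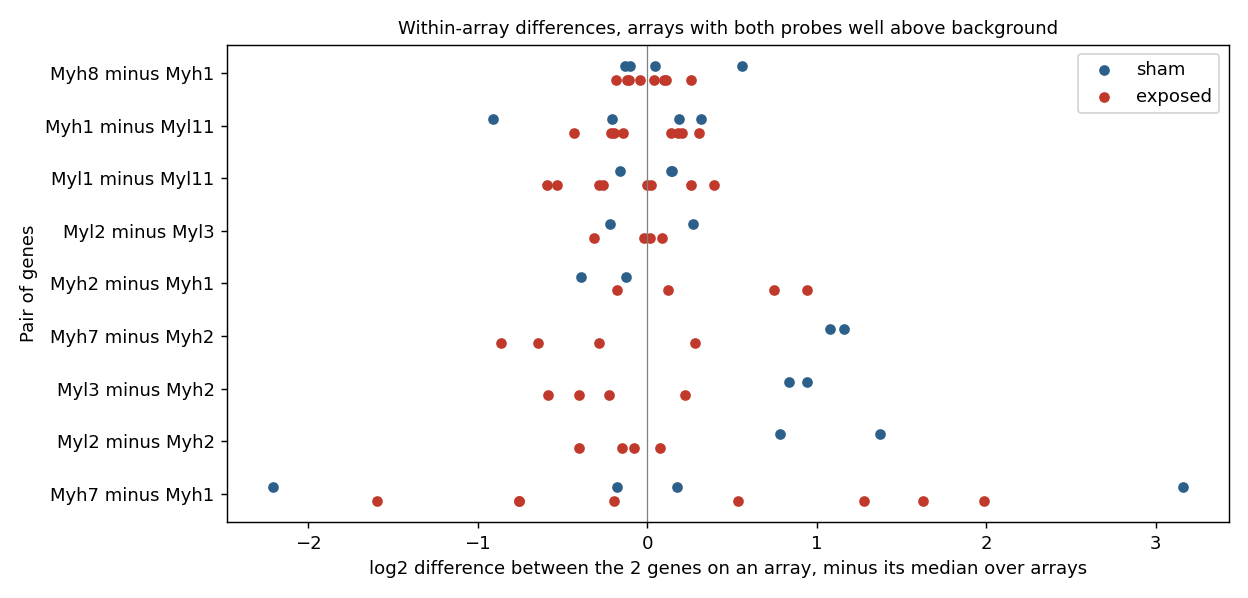
Within-array log2 difference between 2 myosin chain genes, less its median over arrays, for arrays with both probes well above background (1 point per array, red exposed, blue sham). Myh8 minus Myh1 spreads over 0.74 and Myh7 minus Myh1 over 5.37, and the 3 slow chains minus Myh2 lie at 0.78 to 1.37 on 2 sham arrays and at −0.86 to 0.28 on 4 exposed arrays.

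The comparison the study was built for, exposed against sham skin, gave higher means in exposed skin for all 10 chains but called none of them. The mean level of Myh1 was −0.72 ± 4.32 on exposed arrays (SD, n = 9) against −3.91 ± 5.22 on sham arrays (SD, n = 8), a difference of 3.19 log2 with a 95% interval of −1.39 to 7.76 in limma and an adjusted p of 0.983. The difference was 2.47 for Myh8 (−1.65 to 6.60), 1.91 for Myl1 (−1.77 to 5.58) and 1.74 for Myl11 (−1.66 to 5.13). It was 1.34 for Myh2 (−2.19 to 4.88) and 0.61 for Myh4 (−1.31 to 2.54), whose probes did not pass the filter and were fitted with all probes. These intervals all include 0, and each group holds both rich and poor arrays.

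For the slow chains and the embryonic chain the intervals also include 0. Myl3 was higher by 0.98 log2 (−1.75 to 3.72), Myl2 by 0.68 (−1.93 to 3.30), Myh7 by 0.65 (−1.58 to 2.87) and Myh3 by 0.14 (−1.16 to 1.43). Over the 10 genes the adjusted p in limma was 0.929 to 0.991, and the two-sided exact permutation p over all 24310 splits was 0.185 to 0.867. Thus 0 of 10 chains were called at an adjusted p under 0.05, as were 0% of the 20709 kept probes and 0% of all 30367 probes. At an unadjusted p under 0.05 the count was again 0 of 10 by limma, against 4.55% of kept probes and 4.33% of all probes. The groups overlapped for all 10 genes; they did not for 0.00483% of kept probes and 0.0033% of all probes. The median difference of the 10 chains was 1.16 log2, against −0.02 over all kept probes, of which 8016 of 20709 were higher in exposed skin.

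The count of chains higher in exposed skin is not 10 separate results, since the chains share their rich and poor arrays. Of the exposed arrays 8 lay above the sham median in Myh1, Myh8, Myl1 and Myl11, and 3 sham arrays lay above the exposed median in each of these. With slide as a block the differences fell to 2.20 for Myh1, 1.66 for Myh8, 1.41 for Myl1, 1.16 for Myl11, 0.77 for Myh2 and 0.48 for Myl3, and to 0.28, 0.22 and 0.20 for Myh4, Myl2 and Myh7. For Myh3 the sign turned, to −0.032.

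Within single slides the difference of Myh1 was 4.65 on slide 1, with 3 exposed and 2 sham arrays, and 2.64 on slide 2, with 4 and 2. It was 3.38 between the single arrays of each group on slide 3, and −3.28 on slide 4, which holds 1 exposed and 3 sham arrays. All 10 chains were lower in the exposed array of slide 4 than in the mean of its 3 sham arrays. This exposed array was still above sham replicate 7 in Myh7 (−4.81 against −4.99). Myh2, Myh4, Myl2 and Myl3 were not well above background on any array of slide 4, so their differences there are of dim signal. Myh1 and Myl1 were well above background there only on sham replicate 7, and Myh8 was not on the exposed array. The sizes of their differences on slide 4 thus rest on dim signal too. Single arrays moved the difference by more than 1.5 times for several chains: without exposed replicate 8 that of Myh7 was 0.10 and that of Myl2 0.06, and without sham replicate 3 they were 1.30 and 1.44. Normexp background correction lowered the differences to 1.72 for Myh1, 0.89 for Myl1, 0.85 for Myh2, 0.42 for Myl3, 0.40 for Myh7, 0.23 for Myl2, 0.11 for Myh4 and 0.09 for Myh3, and to 1.79 for Myh8 and 1.40 for Myl11.

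**Figure D5:**
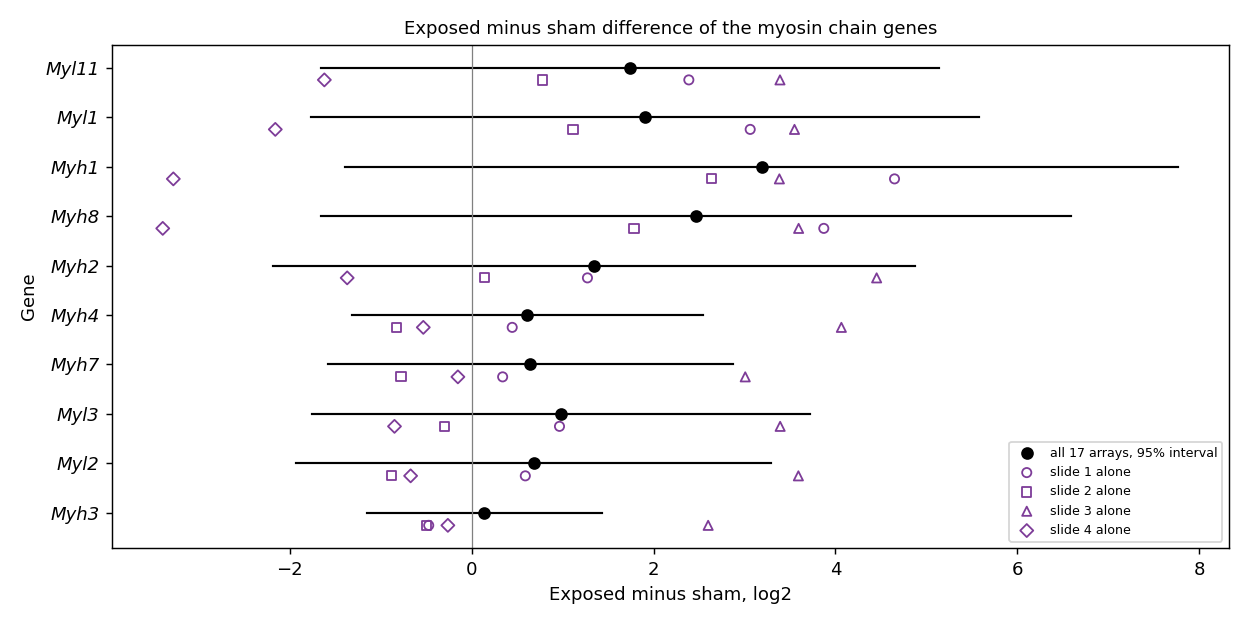
Exposed minus sham difference of each myosin chain gene in log2, over 17 arrays with its 95% interval from limma (black) and within each of 4 slides (purple symbols). Every interval includes 0, and the symbols of slide 4, with 1 exposed and 3 sham arrays, lie below 0 for all 10 genes.

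The genes most like the chains were genes of muscle contraction, calcium handling and energy supply. Ranked by Pearson correlation over 17 arrays with the score of the 6 chains that passed the filter, the 10 genes most like them were Tnnc2 (0.997), Atp2a1 (0.996), Nrap (0.996), Pgam2 (0.994), Tnnt3 (0.993), Myoz1 (0.991), Ckm (0.990), Cox6a2 (0.989), Tnni2 (0.989) and Trdn (0.985). Tnnc2, Tnnt3 and Tnni2 are the fast troponin subunits, Atp2a1 is the calcium pump of the fast sarcoplasmic reticulum, Ckm is muscle creatine kinase and Pgam2 the muscle phosphoglycerate mutase. Only 42 of 11150 genes (0.377%) had a correlation over 0.9, and the median over all was −0.06. The lowest correlations, of Ssh3 (−0.83), Btbd10 (−0.77), Edrf1 (−0.75), Cwh43 and Tfap2e (both −0.73), came with small ranges, of 0.33, 0.33, 0.35, 0.61 and 0.70 log2.

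Of 10 measured partners of fast fibres 8 had a correlation over 0.9 with the chains (median 0.986), and their median range was 8.10 log2. Tnnc2 ran from −4.72 to 5.69, Atp2a1 from −3.99 to 5.61 and Tnnt3 from −5.01 to 3.80. The exceptions were Pvalb, the calcium buffer parvalbumin, at 0.82, and Tpm1, an alpha tropomyosin that smooth muscle also makes, at 0.13. Of 9 measured partners of slow fibres 3 had a correlation over 0.9 (median 0.879, median range 5.52), among them Mb, the oxygen store myoglobin, at 0.977 and Tnni1, slow troponin I, at 0.924, while Tnnt1, slow troponin T, was at 0.861. Atp2a2 (−0.47) and Tpm3 (−0.17) were lowest, with ranges of 0.24 and 0.36 log2. The score leaves out Myh2, Myh4, Myl2 and Myl3. Its chains Myh1, Myh8, Myl1 and Myl11 had SDs of 3.54 to 4.90, against 2.27 for Myh7 and 1.30 for Myh3. It thus follows those 4 more than Myh7, and a closer fit of fast than slow partners is partly built in. None of the 19 was called between exposed and sham skin, and exposed minus sham differences were 0.09 to 1.98 for the fast and −0.0046 to 1.56 for the slow partners.

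Of the shared filament genes 7 were measured and 2 had a correlation over 0.9: Acta1, skeletal actin, at 0.983 with a range of 9.17, and Myom1, an M band protein, at 0.905 with a range of 4.65. Actc1, cardiac actin, had a range of 0.75 and a correlation of −0.08. None was called, with differences of −0.14 to 1.37.

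Genes of muscle precursors, regeneration and denervation fell into those that passed the filter and dimmer ones, and the filter takes out genes seen on few arrays, so the counts describe the former only. Of 7 that passed, 0 had a correlation over 0.9 (median 0.10, median range 0.78), and Myog, the differentiation factor myogenin, had the highest at 0.602, with levels of −6.17 to −4.65. Of the dimmer ones, Myod1, which commits cells to muscle, was well above background only on the 3 arrays where Myh4 and the second Myh3 probe were measured, with a highest level of −2.83 (r = 0.893 with the score), and Myf6 was so on 4 arrays (r = 0.761). With the other arrays at background, both values of r rest on these few arrays and show no graded relation. Pax7, the marker of satellite cells, was well above background on 1 array. Chrng, an acetylcholine receptor subunit of fetal or denervated muscle, and Chrnd, another subunit of the muscle receptor, were so on 0 arrays. At this brightness that says only that no level was measurable.

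The regulators of fibre type and of myosin assembly are subject to the same limit. Of 9 that passed the filter, 0 had a correlation over 0.9 (median −0.13), among them Sox6, a repressor of slow fibre genes, at −0.18 and Tead1 at 0.26. Smyd1, a methyltransferase needed to fold myosin, was well above background only on those 3 arrays, and Trim63, the ubiquitin ligase MuRF1, on 5. None of the measured genes of either list was called, with differences from −0.12 to 0.23 for the precursor list and from −0.23 to 0.22 for the regulators.

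Myosins of the rest of the skin were set against the same score, which is built from the sarcomeric chains. Of 10 measured genes on the non-muscle and smooth muscle myosin list 0 had a correlation over 0.9. Only 0.377% of all ranked genes had one, so this count does not set the list apart. The highest were Mylk, a kinase of the light chains, at 0.590 and Myl9 at 0.549. The list had a median range of 0.79 log2. Myh11, the smooth muscle heavy chain, stayed between 0.78 and 1.96, and Myh10, a non-muscle chain, between −5.18 and −3.46. In a list of further striated muscle myosin genes, which also holds the non-muscle Myh14 and the kinase Mylk3, 5 were measured and 0 had a correlation over 0.9. Myh6, the cardiac alpha chain, came nearest, at 0.899 with levels of −2.92 to 2.36, and Myl4, the atrial and embryonic essential chain, was at 0.586. Of the other cardiac markers Tnnt2, cardiac troponin T, was well above background on all 17 arrays, at 0.65 to 2.38 with a correlation of −0.47, Nppa was well above background on 1 array and Tnni3 and Mybpc3 on 0; Myh6 and Myh7 are near copies, and whether their probes read each other was not tested. None of these genes was called; Mylk3 had the smallest unadjusted p, 0.0552 in limma (adjusted p = 0.983).

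Markers of other tissues were set against the chain score over 17 arrays, in 8 comparisons with p-values adjusted over them. The skeletal muscle list, all 7 of 7 measured, had r = 0.994. The adipocyte score, from 3 of 5 genes, ran from −0.27 to 0.58 in exposed and from −1.60 to 1.38 in sham skin and had r = 0.667 and rho = 0.652 (adjusted permutation p = 0.00781 and 0.0162; r = 0.733 without exposed replicates 8 and 4). The smooth muscle score, 5 of 5 genes, ran from −0.46 to 0.37 and from −0.69 to 0.39 and had r = 0.553 and rho = 0.647 (adjusted permutation p = 0.0411 and 0.0162; r = 0.645 without those arrays).

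For the epidermis, hair follicle, fibroblast and nerve lists the adjusted permutation p was above the threshold. The epidermal keratin score, 4 of 5 genes and all 4 well above background on 17 arrays, had r = −0.459 and rho = −0.404 (adjusted permutation p = 0.102 and 0.175), and the hair follicle score r = −0.154 and rho = 0.127 (0.677 and 0.717). The fibroblast score had r = 0.343 and rho = 0.358 (0.239 and 0.210), and the nerve score r = −0.02 and rho = −0.08 (0.955 and 0.759). The cardiac score had r = 0.840 and rho = 0.620 (adjusted permutation p = 0.00024 and 0.0186), and 1 of its 2 measured genes is Myh6. Fat and smooth muscle markers thus rose with the chains, and their part in the differences between arrays was not tested.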

How the data were processed

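Cy3-labelled RNA of 17 skin explants was hybridised to 1-colour arrays. The authors deposited 1 scanner file per array. Its processed signal is a linear intensity with background and spatial trend removed by Agilent Feature Extraction 10.7.3.1 under protocol GE1_107_Sep09, per the file headers, and the spot flags are from that software too. The deposited value table holds log2 values of 14853 probes centred per probe (column medians −0.04 to 0.04). Against the scanner values its columns had correlations of 0.981 to 0.999, which settled direction and scale; how it was scaled is not given in the sources used here. The table holds 3 of the chains, Myl11, Myh1 and Myh8, and served as an alternative.

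Levels are log2 of the processed signal minus log2 of each array's 75th percentile over non-control spots. Of 62976 spots per array, control spots and spots flagged as outliers were left out, and spots of a probe were averaged. A probe with at least 50% of its spots well above background on at least 8 arrays was kept (20709 of 30367). Sequence names were matched to a RefSeq table of GRCr8, used for names, gene order and start windows, because the array's own annotation uses a different build; 17990 probes were named. limma 3.58.1 (R 4.3.3) compared the groups over all kept probes with Benjamini-Hochberg adjustment and a threshold of 0.05, and members too dim for the filter were taken from a fit of all 30367 probes. The fit was tested on simulated data. Correlations used 100000 resamples. Members and gene lists were chosen with earlier results of these data known. Named genes were the members, the 10 genes most and 5 least correlated with their score, and, per list, the 3 with the largest SD and the 2 with the smallest p. Other list genes named in the text (Pvalb, Tpm1, Atp2a2, Tpm3, Myod1, Myf6, Pax7, Chrng, Chrnd, Smyd1, Trim63, Mylk, Myl9 and the cardiac markers) were singled out after their values were seen.

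Alternatives were quantile and median scaling, normexp (offset 50, on the median pixel signal, since the mean is not in the files used here), both filters on dim probes, slide as a block and alone, array weights, the mean of probes, the value table and leaving out each array.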

Additional observations from a re-analysis of the deposited data

Results flagged for a closer look

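Myh4 on sham replicate 3 was far from the other sham arrays: its level was −3.09, the next highest of the 8 sham arrays was −6.60, and the gap took a share of 0.725 of the group's range, above the Dixon critical value of 0.526. The other 7 sham arrays were not well above background, so their spread is that of dim signal. Of 20 combinations of gene and group examined this was the only one past the critical value, and chance gives about 1 in 20.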

How the results depend on the processing

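No setting called a chain between exposed and sham skin, and the fits of kept probes called 0 probes; the fit of all probes within slide 2 called 1, which was no chain. All 10 chains kept a higher exposed mean under quantile, median and normexp scaling and array weights, as did the 3 chains in the value table, but normexp lowered the size by over 1.5 times for 8 of them (Myh1 from 3.19 to 1.72, Myh4 from 0.61 to 0.11), all but Myh8 and Myl11, and array weights raised Myh3 from 0.14 to 0.29. Within slide 4 (1 exposed, 3 sham arrays) all 10 turned, to −0.53 for Myh4, −3.28 for Myh1, −1.37 for Myh2, −0.15 for Myh7, −0.26 for Myh3, −3.40 for Myh8, −2.16 for Myl1, −1.62 for Myl11, −0.67 for Myl2 and −0.85 for Myl3. Myh2, Myh4, Myl2 and Myl3 were not well above background on any array of slide 4, so their values there are of dim signal. Myh1 and Myl1 were well above background there only on sham replicate 7, and Myh8 was not on the exposed array, so their sizes there rest on dim signal too. Within slide 2, 5 turned, to −0.83 for Myh4, −0.78 for Myh7, −0.49 for Myh3, −0.88 for Myl2 and −0.30 for Myl3. Myh3 also turned within slide 1 (−0.47) and with slide as a block (−0.032). The cause of these turns was not tested, and the fits differ in the arrays they hold. Leaving out 1 array at a time gave ranges of 2.49 to 4.37 for Myh1, 1.76 to 3.52 for Myh8, 1.21 to 2.87 for Myl1, 1.07 to 2.63 for Myl11, 0.55 to 2.19 for Myh2, 0.35 to 1.76 for Myl3, 0.06 to 1.44 for Myl2, 0.10 to 1.30 for Myh7, 0.13 to 1.18 for Myh4 and −0.22 to 0.41 for Myh3. The low ends came without exposed replicate 8 or 4 and the high ends without sham replicate 3. Myh3 turned without exposed replicate 4, exposed replicate 8 or sham replicate 8, and moved by over 1.5 times without most other single arrays.

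The median range of the chains was 8.91 log2, and 5.83 with normexp, whose offset raises dim signals by construction. With the other Myh2 probe the gap between the lowest sham and the highest exposed value of Myh1 minus Myh2 turned from −0.05 to 0.15. No paired analysis was possible because the labels give no replicate numbers, and the numbers used here follow the order of the deposit. The scan date was not run as a separate block because it coincides with the slide. Signal over background limits Myh4, Myh2, Myl2 and Myl3 to the 3 to 7 arrays where they were measured.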
